A study of Mus musculus with 7 samples.

Results

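The genes described here are 8 transcription factors of the hepatocyte nuclear factor and forkhead families, Hnf4a, Hnf4g, Onecut1 (also known as Hnf6), Foxa1, Foxa2, Foxa3, Foxo1 and Foxo3. They were taken by symbol from a table of 35013 gene symbols, and each had 1 row. Poly-A RNA of sorted β-cells was sequenced from 7 mice, 1 library per mouse, in 3 groups of 2, 2 and 3. The KO_db/db group (n = 2) carried RIP-Cre herr, a Cre recombinase driven by an insulin promoter in a line chosen for recombination restricted to β-cells, with both copies of Aldh1a3 floxed, 1 floxed tdT (tdTomato) reporter allele and Lepr db/db. The db/db group (n = 2) carried the same Cre and reporter with 1 floxed and 1 unmodified copy of Aldh1a3 and Lepr db/db, and the lean db/+ group (n = 3) differed from it by Lepr db/+. All groups thus held the Cre transgene and the reporter, and the controls were heterozygous for the floxed allele. The labels name the KO, db/db and db/+ genotypes, and the full genotypes come from the study's results section. Its methods give mice of 16 to 20 weeks and both sexes, fasted for 16 hours before islets were isolated. Mice with db/db lack the long form of the leptin receptor and become obese and diabetic. The design thus sets diabetic β-cells with 1 or both copies floxed of Aldh1a3, the gene of an aldehyde dehydrogenase that appears in failing β-cells, beside lean ones.

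HNF4α and HNF4γ are nuclear receptors that bind DNA as dimers and activate genes of lipid and glucose metabolism, and mutations in human HNF4A cause a form of monogenic diabetes. The FOXA proteins are pioneer factors: they bind their sites in compacted chromatin and open it for others, and Foxa2 is needed for the mature secretory program of β-cells. FOXO1 and FOXO3 are held in the cytoplasm when insulin signalling through AKT phosphorylates them and enter the nucleus when it falls or under oxidative stress, so their RNA level is not a measure of their activity. ONECUT1 acts in the pancreatic progenitor, upstream of endocrine genes, and is switched off as β-cells form.

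The sequences in front of 3 of these genes are shown because the results turn on their levels: Foxo1 and Foxo3, whose RNA differed between lean and diabetic mice as counted, and Hnf4a, whose RNA passed no test. Each is 300 bases long, from 250 before to 50 after the start site in RefSeq (build GRCm38.p6), read 5′ to 3′ on the strand of the gene. Capitals mark the matches to the motifs searched on both strands: the forkhead core TGTTTAC, the insulin response element TATTTTG, the HNF4 site CAAAGTCCA, the HNF1 palindrome with a relaxed form that fixes fewer of its letters, the ONECUT core ATTGATT, and the GC box GGGCGG. The relaxed form was chosen after these sequences had been read, and every HNF1 palindrome also matches it. The Foxo1 promoter lies at chr3:52268087-52268386 (+), the Foxo3 promoter at chr10:42276646-42276945 (−), and the Hnf4a promoters, upstream and downstream, at chr2:163506607-163506906 (+) and chr2:163546905-163547204 (+).
Foxo1 promoter: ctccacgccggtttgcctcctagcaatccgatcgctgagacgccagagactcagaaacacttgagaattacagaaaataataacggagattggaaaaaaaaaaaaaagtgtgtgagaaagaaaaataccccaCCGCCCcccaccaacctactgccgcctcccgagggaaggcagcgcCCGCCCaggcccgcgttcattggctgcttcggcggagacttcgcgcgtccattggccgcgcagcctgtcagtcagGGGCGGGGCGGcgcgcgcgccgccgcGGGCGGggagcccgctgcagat
Foxo3 promoter: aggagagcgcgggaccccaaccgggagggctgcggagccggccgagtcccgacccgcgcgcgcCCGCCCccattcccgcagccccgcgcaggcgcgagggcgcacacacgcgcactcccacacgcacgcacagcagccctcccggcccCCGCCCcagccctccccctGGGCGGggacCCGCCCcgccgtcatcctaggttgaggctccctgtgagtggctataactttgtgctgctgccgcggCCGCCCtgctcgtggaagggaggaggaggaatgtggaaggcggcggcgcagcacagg
Hnf4a upstream promoter: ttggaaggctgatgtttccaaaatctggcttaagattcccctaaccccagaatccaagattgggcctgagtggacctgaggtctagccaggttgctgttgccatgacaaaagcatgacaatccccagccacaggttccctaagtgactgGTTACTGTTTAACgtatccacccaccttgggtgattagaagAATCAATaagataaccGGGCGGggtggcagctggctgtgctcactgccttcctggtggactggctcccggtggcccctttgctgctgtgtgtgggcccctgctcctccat
Hnf4a downstream promoter: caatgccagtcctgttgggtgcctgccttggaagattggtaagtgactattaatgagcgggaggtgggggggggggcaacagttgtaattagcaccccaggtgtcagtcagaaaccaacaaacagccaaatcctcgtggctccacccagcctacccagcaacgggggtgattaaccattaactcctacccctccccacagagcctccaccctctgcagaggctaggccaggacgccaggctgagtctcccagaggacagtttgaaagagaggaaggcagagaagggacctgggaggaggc

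The Foxo1 and Foxo3 windows were rich in CpG dinucleotides and GC boxes, and neither Hnf4a window was. Foxo1 held 31 CpGs and 5 GC boxes and Foxo3 35 CpGs and 5 GC boxes, against a median of 7 CpGs over all 32851 promoters of this length. In Foxo1, the GC boxes that begin at +3 and +8 share 1 base. The 2 Hnf4a windows held 4 CpGs each. A forkhead core stood in neither FOXO window, and it stood in 3.65% of all promoters. The upstream Hnf4a window held an ONECUT core, at −60 from the start site, and the relaxed HNF1 form, at −101. These motifs stood in 2.86% and 0.0944% of all promoters. The downstream window held none of the motifs. Of the 10 promoters that matched to 7 of the 8 factors, 9 held a GC box, against 35.7% of all promoters. The second ONECUT core stood in a promoter of Foxa2. These are matches of letters and say nothing of binding.

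Family members are close in their coding sequence, and the shared stretch matters here because kallisto, which made the counts, divides a read that fits several transcripts. The stretch shown is a run of 38 bases in Foxo1 (chr3:52269372-52269409, +) and Foxo3 (chr10:42274829-42274866, −), within 1 coding exon of each gene.
Foxo1 and Foxo3: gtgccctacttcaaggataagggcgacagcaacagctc
Of the words of 31 bases in each gene's transcripts, no more than 0.338% were shared with any other gene for Hnf4a, Hnf4g, Foxa1, Foxa2, Foxa3 and Foxo3. The share was 8.0% for Foxo1, where 674 exon bases overlap the antisense gene Gm20402, and 53.0% for Onecut1, where 2171 exon bases overlap the long noncoding gene Gm20649 on the same strand. Neither noncoding gene was named in the count table, and the strand setting of the counting is not given in the sources used here. Reads of Foxo1 and its antisense partner, and of Onecut1 and its neighbour, therefore cannot be told apart in these stretches.

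The genes lie apart in GRCm38. Hnf4a (ENSMUSG00000017950.16) lies at chr2:163506808-163572910 on the plus strand and Foxa2 (ENSMUSG00000037025.11) at chr2:148042877-148046969 on the minus strand. Hnf4g (ENSMUSG00000017688.14) lies at chr3:3508030-3658052 and Foxo1 (ENSMUSG00000044167.6) at chr3:52268336-52353221, both on the plus strand. Onecut1 (ENSMUSG00000043013.10) lies at chr9:74861921-74891781 on the plus strand. Foxo3 (ENSMUSG00000048756.11) lies at chr10:42181841-42276755, Foxa1 (ENSMUSG00000035451.7) at chr12:57540628-57546916 and Foxa3 (ENSMUSG00000040891.6) at chr7:19013284-19023538, all on the minus strand. Their merged exons ran from 2037 bases for Foxa3 to 8665 bases for Foxo1.

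Total counts per library ran from 27496645 to 35852785, and the level of a gene is given in CPM, counts scaled to library size, after TMM scaling over all 7 libraries. A gene with 3 counts, the detection floor used here, had 0.0717 to 0.123 CPM, which covers counting error only. Aldh1a3 stood at 4.97 and 7.89 CPM in KO_db/db, 98.4 and 194 CPM in db/db, and between 0.0729 and 0.589 CPM in db/+. The lower level in KO_db/db than in db/db follows the labels. KO_db/db still stood above db/+ (log2 fold change 4.44, adjusted p = 0.00327 in edgeR), and the source of that RNA was not tested. Markers of pancreatic acinar cells, the exocrine neighbours of islets, took 10.6% of the counts in KO_db/db mouse 1 and 1.15% in mouse 2. They took 0.0258% to 0.0392% in db/db and 0.0070% to 0.0207% in db/+, and 26 of 27 tested were called higher in KO_db/db than in db/+, or 11 with the mouse number as a replicate block. β-cell markers took 34.3% to 38.7% of the counts in db/+, 24.8% to 27.0% in db/db and 25.9% to 26.4% in KO_db/db. In bulk RNA, fewer cells of a type and less RNA per cell cannot be told apart. Each fold change sets the first group named over the second and comes from the quasi-likelihood test of edgeR, p-values were adjusted by the method of Benjamini and Hochberg over all genes tested, and a gene was called at an adjusted p under 0.05. The db/db and the KO_db/db comparisons with db/+ share the same 3 lean libraries.

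The number of members called was close to what the genes at large gave. In db/db against db/+, 2 of the 6 tested members were called, both higher, beside 37.8% of all 13406 genes, with 19.9% of all genes called higher and 18% lower. Against the same lean mice, 3 of 6 were called in KO_db/db, 2 of them higher and 1 lower, beside 38.4% of 13228 genes, with 20.5% higher and 17.9% lower. Unadjusted p-values under 0.05 were found for 3 of the 6 members in db/db and 3 in KO_db/db, beside 48.2% and 48.8% of all genes. Libraries of the 2 groups did not overlap for 4 of 6 members in each comparison, beside 63.3% and 64.1% of all genes. These shares are near the background and say nothing particular of the family, so the weight lies on the single genes.

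Foxo1 and Foxo3 were the members that rose in diabetic β-cells, and they rose in both diabetic groups. Foxo1, the FOXO factor best known in β-cells, stood at 44.6, 53.6 and 45.5 CPM in the db/+ libraries, 69.5 and 81.3 CPM in db/db, and 92.2 and 68.6 CPM in KO_db/db. Both diabetic groups stood wholly above the lean group and overlapped each other. The level was 1.56-fold higher in db/db than in db/+ (log2 fold change 0.65, SE 0.13, adjusted p = 0.00946 in edgeR, 95% interval 0.34 to 0.95). In KO_db/db it was 1.68-fold higher than in db/+ (log2 fold change 0.75, SE 0.15, adjusted p = 0.00962 in edgeR), and with the mouse number as a replicate block that call was lost (log2 fold change 0.71, adjusted p = 0.0601 in edgeR).

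Foxo3, the other widely expressed FOXO factor and a regulator of stress resistance, stood at 21.7, 24.3 and 17.9 CPM in db/+, 35.9 and 62.4 CPM in db/db, and 70.4 and 47.6 CPM in KO_db/db. The lean libraries stood close together, and the diabetic libraries were all higher but spread widely within each group. The level was 2.29-fold higher in db/db than in db/+ (log2 fold change 1.20, SE 0.24, adjusted p = 0.0102 in edgeR, 95% interval 0.62 to 1.78). Left without db/db mouse 2, the higher of the pair, the log2 fold change was 0.74 (adjusted p = 0.0279 in edgeR). In KO_db/db the level was 2.78-fold higher than in db/+ (log2 fold change 1.47, SE 0.20, adjusted p = 0.00253 in edgeR). Per kilobase of exon, the ratio of Foxo3 to Foxo1 was 0.452 to 0.556 in the lean libraries, 0.590 and 0.878 in db/db, and 0.874 and 0.795 in KO_db/db. Foxo3 thus took a larger part of the summed Foxo1 and Foxo3 RNA in each diabetic library, with db/db mouse 1 nearest the lean ones. This difference in ratio was not tested.

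**Figure D1:**
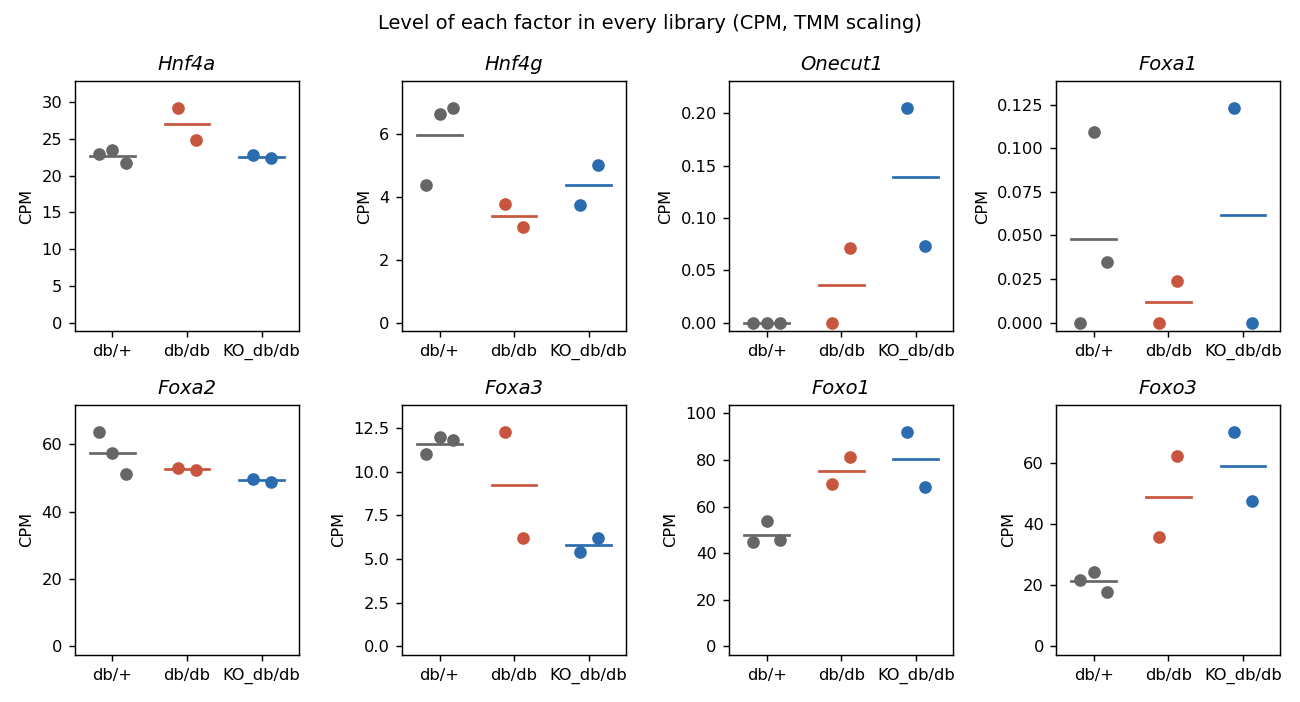
Level of each of the 8 factors in CPM (vertical axis, each panel on its own linear scale) in the 7 libraries; points are mice, grouped as db/+, db/db and KO_db/db, and bars are group means. Foxo1 and Foxo3 stand higher in all 4 diabetic libraries than in the 3 lean ones, and Onecut1 and Foxa1 stay near the floor of 3 counts.

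These rises went along with a property of the libraries. Between db/db and db/+, genes with longer exons were called higher more often: 33.0% of the longest quintile, where Foxo1 lies, and 22.6% of the next, where Foxo3 lies, against 11.4% of the shortest quintile. For KO_db/db the shares were 38.2%, 24.5% and 8.58%. A repeat of the fit with the trend of each library over exon length and GC content removed was added after these shares had been seen. It left Foxo1 at a log2 fold change of 0.37 in db/db (adjusted p = 0.0617 in edgeR) and 0.44 in KO_db/db (adjusted p = 0.0641 in edgeR), so that neither passed. Foxo3 stayed past the threshold at 0.81 in db/db (adjusted p = 0.0344 in edgeR) and 0.99 in KO_db/db (adjusted p = 0.00916 in edgeR). The direction was the same with and without the trend for both genes, and what made the trend was not tested.

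**Figure D2:**
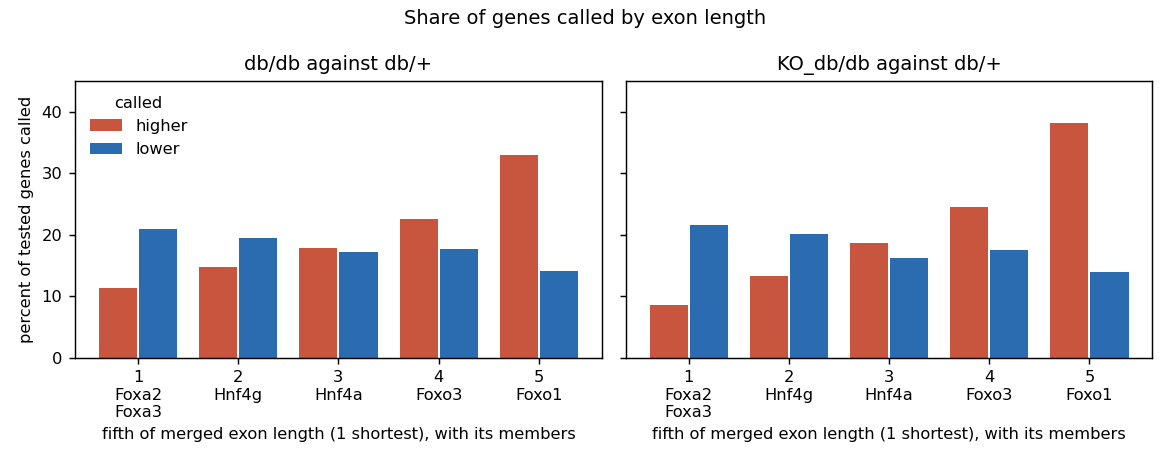
Share of tested genes called higher (red) and lower (blue), in percent, by quintile of merged exon length in db/db and KO_db/db against db/+; the members in each quintile are named under it. The share called higher grows from 11.4% to 33.0% in db/db and from 8.58% to 38.2% in KO_db/db.

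Among the FOXA factors, Foxa3 was lower in KO_db/db than in lean mice and Foxa2 was not called as counted. Foxa2 stood at 63.7, 57.3 and 51.1 CPM in db/+, 52.9 and 52.2 CPM in db/db, and 49.7 and 48.7 CPM in KO_db/db. The KO_db/db libraries lay just under the lowest of the others, and db/db lay within the lean range. The log2 fold change was −0.14 in db/db against db/+ (SE 0.12, adjusted p = 0.410 in edgeR, 95% interval −0.43 to 0.15) and −0.21 in KO_db/db against db/+ (adjusted p = 0.178). With the length and GC trend removed, the second became −0.51 (adjusted p = 0.0167 in edgeR), past the threshold.

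Foxa3, the FOXA factor best known in liver, stood at 11.01, 11.96 and 11.84 CPM in db/+, 12.3 and 6.21 CPM in db/db, and 5.38 and 6.19 CPM in KO_db/db. One db/db mouse was above every lean mouse and the other was at the level of the KO_db/db mice, so db/db as a group had no single level. In KO_db/db the level was 1.99-fold lower than in db/+ (log2 fold change −0.99, SE 0.15, adjusted p = 0.00414 in edgeR, 95% interval −1.36 to −0.63). With the length and GC trend removed it was −1.17 (adjusted p = 0.00368 in edgeR). For db/db it was −0.34 (SE 0.28, adjusted p = 0.372 in edgeR). It rested on which mouse was counted: it was −0.91 without db/db mouse 1 (adjusted p = 0.0142 in edgeR) and 0.07 without db/db mouse 2. Foxa1, needed with Foxa2 in pancreas development, had 3 and 0 counts in KO_db/db, 0 and 1 in db/db, and 0, 3 and 1 in db/+. No library was above the floor, and the gene was not tested.

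Hnf4a was called in no comparison. It stood at 23.0, 23.6 and 21.7 CPM in db/+, 29.2 and 24.8 CPM in db/db, and 22.8 and 22.4 CPM in KO_db/db. Both db/db libraries were above all the others, and KO_db/db lay within the lean range. The log2 fold change in db/db against db/+ was 0.24 (SE 0.12, adjusted p = 0.171 in edgeR, 95% interval −0.05 to 0.53), and it was −0.03 with the length and GC trend removed. For KO_db/db it was −0.0049 (SE 0.10, adjusted p = 0.974 in edgeR, 95% interval −0.24 to 0.23), and −0.28 with the trend removed (SE 0.10, adjusted p = 0.0789 in edgeR), outside that interval.

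Hnf4g, the paralog that is strong in gut, stood at 4.38, 6.64 and 6.82 CPM in db/+, 3.76 and 3.03 CPM in db/db, and 3.73 and 5.0 CPM in KO_db/db. The db/db libraries lay below all lean ones, and KO_db/db overlapped both groups. The log2 fold change in db/db against db/+ was −0.82 (SE 0.27, adjusted p = 0.0519 in edgeR, 95% interval −1.47 to −0.18), just outside the threshold. It passed in DESeq2 (adjusted p = 0.0310) and missed by more with the length and GC trend removed (log2 fold change −0.58, adjusted p = 0.139 in edgeR). The value in KO_db/db was −0.43 (adjusted p = 0.240 in edgeR).

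Onecut1 was at or near 0 in every library. It had 0 counts in all 3 db/+ libraries, which allows up to 0.104 to 0.123 CPM, 0 and 3 counts in db/db, and 5 and 3 counts in KO_db/db. Only KO_db/db mouse 1 stood above the floor, at 0.205 CPM. That library also held the most acinar RNA, and whether its 5 counts came with that RNA was not tested. The overlap with Gm20649 applies to these counts as well.

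The comparison of KO_db/db with db/db, which share the diabetic background, gave no call among the members. Across all 13486 genes tested 43 were called, or 0.319%, so that few calls could be expected of 6 genes, and 0 of the 6 had an unadjusted p under 0.05, against 20.9% of all genes. Foxo1 had a log2 fold change of 0.09 (SE 0.19, adjusted p = 0.817 in edgeR, 95% interval −0.39 to 0.57). Foxo3 had 0.26 (SE 0.32, adjusted p = 0.669, 95% interval −0.56 to 1.07). Both turned negative when KO_db/db mouse 1 or db/db mouse 1 was left out, to values between −0.14 and −0.02.

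Between the same groups Foxa2 had a log2 fold change of −0.10 (SE 0.12, adjusted p = 0.673 in edgeR, 95% interval −0.41 to 0.21). Hnf4a had −0.26 (SE 0.15, adjusted p = 0.377, 95% interval −0.65 to 0.13) and Hnf4g 0.36 (SE 0.30, adjusted p = 0.517). Foxa3 had −0.68 (SE 0.36, adjusted p = 0.344 in edgeR, 95% interval −1.59 to 0.24). Over 12 alternatives the value for Foxa3 ran from −1.09 to −0.105. The libraries of Hnf4a, Foxa2 and Foxa3 did not overlap between the groups, KO_db/db being lower, which was also so, in one direction or the other, for 57.5% of all genes. With 2 mice in each group, only large differences can be told from the spread between mice.

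**Figure D3:**
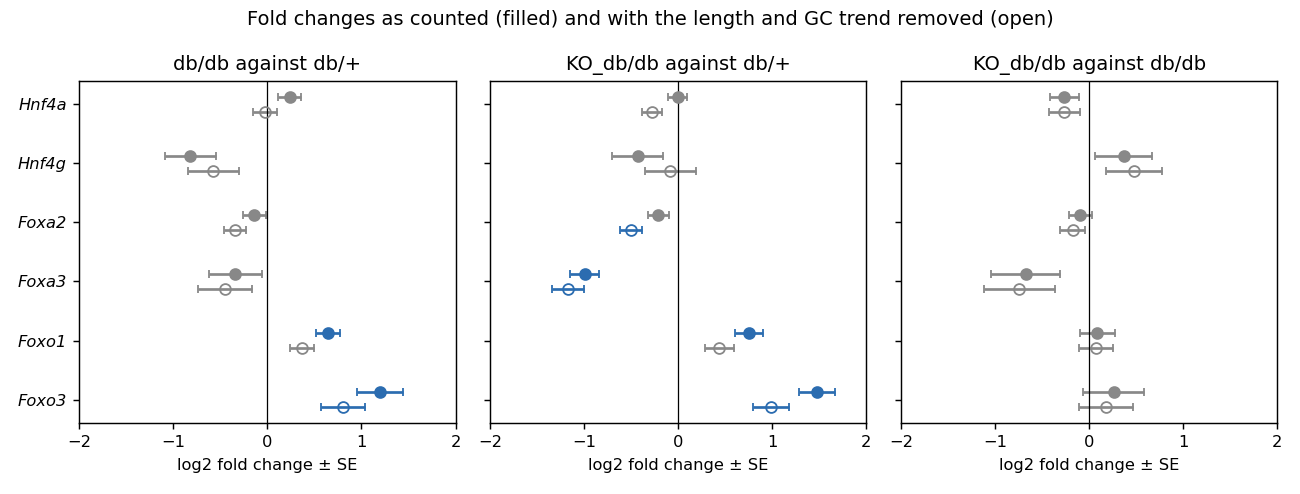
log2 fold change (horizontal axis) of the 6 tested members in the 3 comparisons, with bars of 1 SE; filled points are the fits as counted, open points the fits with the length and GC trend removed, and blue marks an adjusted p under 0.05. Foxo1 loses its call in both comparisons with db/+ when the trend is removed, and Foxo3 keeps it.

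Counts of one gene cannot be set against those of another without regard to length, so levels were also taken as CPM per kilobase of merged exons. On that scale Foxa2 stood far above the rest in each group, with a mean ± SD of 24.2 ± 2.67 over the 3 db/+ mice, 22.2 ± 0.195 over the 2 db/db mice and 20.8 ± 0.287 over the 2 KO_db/db mice. In lean mice Foxa3 (5.70 ± 0.254), Foxo1 (5.53 ± 0.573), Hnf4a (4.71 ± 0.201), Foxo3 (2.81 ± 0.424) and Hnf4g (2.26 ± 0.517) followed, all in CPM per kilobase with the SD over 3 mice. Foxa3 and Foxo1 overlapped there, as did Foxo3 and Hnf4g.

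In the diabetic groups the order was Foxa2, Foxo1, Foxo3, Hnf4a, Foxa3 and Hnf4g. Foxo1 was at 8.71 and Foxo3 at 6.49 CPM per kilobase in db/db, and at 9.28 and 7.79 in KO_db/db. In db/db, Foxo1 and Foxo3 overlapped, and so did Foxo3 with Hnf4a and Hnf4a with Foxa3, since the Foxa3 libraries ran from 3.05 to 6.04 CPM per kilobase. In KO_db/db, Foxo1 and Foxo3 overlapped and the members further down were apart. The same order came with the longest transcript as the length. Foxa2 made up 78.7% to 88.7% of the summed FOXA level per kilobase in every library, and Hnf4a 63.4% to 81.7% of the summed HNF4 level.

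**Figure D4:**
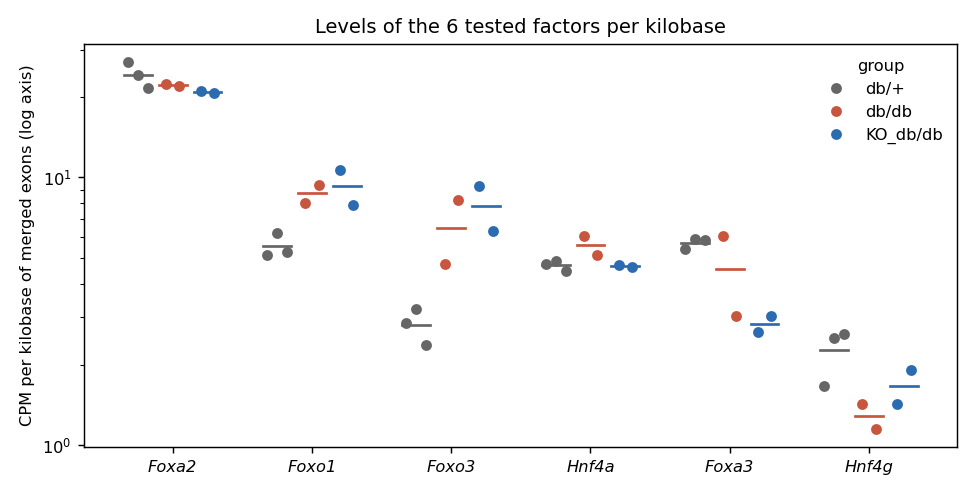
Level of the 6 tested members in CPM per kilobase of merged exons (log axis), with points for mice and short bars for group means. Foxa2 stands above 20 in all 7 libraries, and the mean of Foxo3 lies below that of Hnf4a in db/+ and above it in both diabetic groups.

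Other factors of the same families were described from a list of 20 relatives, of which 15 were tested. This list and those that follow were chosen with earlier results of these data known. Their shares beside all genes are therefore descriptions and not independent tests. Compared to db/+, the db/db group had 8 of these called higher and 0 lower, beside 19.9% and 18% of all genes, and the median log2 fold change was 0.59, against 0.0064 over all genes tested. Foxp4, a forkhead repressor, stood at 23.3, 22.8 and 31.4 CPM in db/+ and at 72.1 and 52.1 CPM in db/db, and rose by a log2 fold change of 1.25 (adjusted p = 0.00395 in edgeR). Foxk1, a forkhead factor of metabolic genes, stood at 16.5, 19.3 and 19.5 CPM in db/+ and 39.5 and 46.7 CPM in db/db, and rose by 1.21 (adjusted p = 0.00137 in edgeR). Its paralog Foxk2 had a log2 fold change of 0.04 and Foxj3 of 0.16, without passing the test. In both Foxk1 and Foxp4 the diabetic and lean libraries stood well apart.

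Foxp1, a paralog of Foxp4, rose by 0.89 on the log2 scale in db/db (adjusted p = 0.0130 in edgeR), and Foxj2, Foxn2 and Foxp2 were also called. Of the same 15 in KO_db/db, 8 were again called higher and 0 lower against db/+, beside 20.5% and 17.9% of all genes, with a median of 0.53, against −0.0034 over all genes. Foxo4 and Foxo6, the smaller FOXO factors, were called there with log2 fold changes of 0.75 and 0.76. Between the diabetic groups 0 of the 15 were called, with a median of −0.07, beside 0.319% of all genes. With the length and GC trend removed the medians against db/+ fell to 0.30 and 0.22, and 5 and 6 relatives were called. The count of 8 in db/db was 5 without db/db mouse 1, db/+ mouse 1 or db/+ mouse 2, and that in KO_db/db was 5 without KO_db/db mouse 1 or db/+ mouse 1. The median between the diabetic groups was positive, up to 0.09, in 3 of 12 alternatives.

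The known regulators of FOXO proteins moved in both directions. Of 19 tested in db/db against db/+, 5 were called higher and 5 lower, beside 19.9% and 18% of all genes, with a median log2 fold change of −0.07. The kinase genes Akt1 and Akt2, whose products phosphorylate FOXO, fell by 0.37 and 0.42 on the log2 scale (adjusted p = 0.0418 and 0.0381 in edgeR). Sgk1, a kinase that acts on the same sites, rose by 2.25, the acetyltransferase genes Crebbp and Ep300 by 2.42 and 1.30, the deacetylase gene Sirt2 by 0.61 and the deubiquitinase gene Usp7 by 0.70. Xpo1, whose product carries FOXO out of the nucleus, fell by 1.22 and Prkaa1, of the energy sensor AMPK, by 0.75. The 14-3-3 genes Ywhae and Ywhaz had log2 fold changes of −0.18 and −0.11 without passing the test.

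The KO_db/db group had 5 of 19 regulators called higher and 4 lower against db/+, near the 20.5% and 17.9% of all genes. Akt1 and Akt2 had log2 fold changes of −0.04 and −0.07 and were not called. Set against db/db, the log2 fold changes of Akt1 and Akt2 were 0.32 and 0.33, with adjusted p of 0.288 and 0.285 in edgeR, and 0 of the 19 regulators were called. Their 9 calls against db/+ were 6 without KO_db/db mouse 1.

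Genes that FOXO factors are known to bind or activate also split. Against db/+, 8 of 24 tested in db/db were called higher and 4 lower, beside 19.9% and 18% of all genes, with a median log2 fold change of 0.16. Irs2, the insulin receptor substrate of β-cells, rose by 1.89 on the log2 scale (adjusted p = 0.000955 in edgeR). The cell cycle inhibitor gene Cdkn1a rose by 1.96, Gadd45a, a DNA damage gene, by 1.29, and Pdk4, which turns off pyruvate oxidation, by 4.91. On the other side Cdkn1b, also a cell cycle inhibitor and a textbook FOXO target, fell by 0.84 and Neurod1, a β-cell transcription factor, by 0.59 (adjusted p = 0.00938 in edgeR). Cyb5r3, Gabarapl1 and Sesn3, the most abundant of the list, had log2 fold changes of 0.16, −0.04 and 0.12 and did not pass. The median turned on single settings: it was 0.38 without db/db mouse 1, −0.03 without db/db mouse 2 and −0.08 with the length and GC trend removed. Calls were 8 without db/db mouse 2 and 11 with the trend removed.

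Of 23 FOXO targets tested in KO_db/db against db/+, 10 were called higher and 3 lower, beside 20.5% and 17.9% of all genes, with a median of 0.43. Cyb5r3, a reductase gene, stood at 363, 388 and 355 CPM in db/+ and at 594 and 532 CPM in KO_db/db, and rose by 0.62 (adjusted p = 0.0109 in edgeR). Sesn3, a stress-induced regulator of mTOR, rose by 0.46 (adjusted p = 0.0289 in edgeR), and the insulin receptor gene Insr by 0.43. With the trend removed the median was 0.12 and 10 were called, and 8 were called without KO_db/db mouse 1 or db/+ mouse 1. Against db/db, 0 of 24 were called in edgeR and 3 in DESeq2 or without a filter on low counts. Over all genes, 43 of 13486, 1369 of 13486 and 1570 of 19621 were called under these settings.

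Targets of the FOXA factors held no common direction. Of 8 tested in db/db against db/+, 2 were called higher and 3 lower, beside 19.9% and 18% of all genes, with a median log2 fold change of −0.38. That median was −0.77 without a filter or with all libraries in one fit. It was −0.54 without db/db mouse 1 and −0.57 without db/db mouse 2. Hadh, the fatty acid oxidation enzyme gene that restrains insulin secretion, stood at 939, 921 and 812 CPM in db/+ and at 315 and 365 CPM in db/db, and fell by 1.40 (adjusted p = 0.00109 in edgeR). Pdx1, the β-cell master regulator, fell by 0.83. Ttr, which encodes transthyretin, stood at 520, 504 and 679 CPM in db/+, 1907 and 1716 CPM in db/db, and 616 and 549 CPM in KO_db/db. It rose by 1.66 in db/db (adjusted p = 0.00110 in edgeR), and in KO_db/db against db/db the log2 fold change was −1.64 (adjusted p = 0.0704 in edgeR).

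Ttr is also a marker of α-cells, which make glucagon. The 8 α-cell markers, Ttr among them, took 0.105% to 0.155% of the counts in db/+, 0.350% to 0.388% in db/db and 0.160% to 0.174% in KO_db/db. Of the 7 tested in db/db against db/+, 6 had a positive log2 fold change, with a median of 1.20. Gc, the vitamin D-binding protein gene, rose by 3.01 (adjusted p = 0.00107 in edgeR) and Slc38a5, an amino acid transporter gene, by 3.75 (adjusted p = 0.000325 in edgeR). Gcg, the glucagon gene itself, had −0.90 without passing the test. Without Ttr the other markers summed to 518 to 1269 CPM in db/+, 1125 and 1323 CPM in db/db, and 841 and 1345 CPM in KO_db/db, where the groups overlapped, and most of the lean sum was Gcg. Without Ttr and Gcg they summed to 74.0, 87.5 and 137 CPM in db/+, 720.5 and 777 CPM in db/db, and 319 and 223 CPM in KO_db/db, and the groups stood apart. Both of these sums were chosen after the values were seen. The part of α-cells in the Ttr result was not tested. In KO_db/db against db/+, Abcc8 and Kcnj11, the subunits of the ATP-sensitive potassium channel, were called higher, with log2 fold changes of 0.51 and 0.33, and Hadh and Pdx1 lower, beside 20.5% and 17.9% of all genes. These 4 calls were 1 without KO_db/db mouse 1, and 2 without db/+ mouse 1 or 2, with the replicate block or with the length and GC trend removed. The 5 calls in db/db were 3 without db/db mouse 1.

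Targets of HNF4 and HNF1 moved in both directions. The db/db group had 7 of 15 tested called higher and 3 lower, beside 19.9% and 18% of all genes, with a median log2 fold change of 0.87, against 0.0064 over all genes. Apob and Lpin1, genes of lipid handling, and Ppara, the fatty acid receptor, rose by 4.04, 2.90 and 4.36 on the log2 scale. Slc2a2, the glucose transporter of β-cells, stood at 1206, 1062 and 1155 CPM in db/+, 130 and 66.2 CPM in db/db, and 374 and 230 CPM in KO_db/db. It fell by 3.55 in db/db (adjusted p = 0.000766 in edgeR) and by 1.91 in KO_db/db against db/+ (adjusted p = 0.00224 in edgeR). G6pc2, the glucose-6-phosphatase subunit of islets, fell by 1.41 in db/db. Slc2a2 and G6pc2 also stand, with Pdx1, in the list of 10 β-cell markers, of which 9 were called lower in db/db and 7 in KO_db/db against db/+, or 4 without KO_db/db mouse 2. Cltrn, the collectrin gene, rose by 0.83 in db/db (adjusted p = 0.00362 in edgeR) and stood at −0.17 in KO_db/db.

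The KO_db/db group had 5 of 15 HNF targets called higher and 4 lower against db/+, beside 20.5% and 17.9% of all genes, with a median of 0.04, against −0.0034 over all genes. Against db/db, 0 of 15 were called in edgeR, 6 in DESeq2, 8 without a filter and 4 with all libraries in one fit. Over all genes, 43 of 13486, 1369 of 13486, 1570 of 19621 and 818 of 13789 were called under these settings. The median of the HNF targets was −0.61, against −0.02 over all genes, and was −0.09 without db/db mouse 1. Lpin1, the member of this list with the smallest unadjusted p there and named after its values were seen, had a log2 fold change of −1.71 (adjusted p = 0.0538 in edgeR). With the length and GC trend removed, 1 HNF target was called there, beside 82 of 13486 genes.

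Targets of ONECUT1 were few. Of 6 tested in db/db against db/+, 4 were called higher and 0 lower, beside 19.9% and 18% of all genes, among them Prox1, a pancreas progenitor factor, by 0.38 (adjusted p = 0.0488 in edgeR) and Neurog3, the endocrine progenitor factor, by 1.68 (adjusted p = 0.0129 in edgeR). Without db/db mouse 2, 1 of them was called. Onecut1 itself had 0 to 3 counts in those libraries. Neurog3 was called in KO_db/db against db/+ as well, with a log2 fold change of 2.25.

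**Figure D5:**
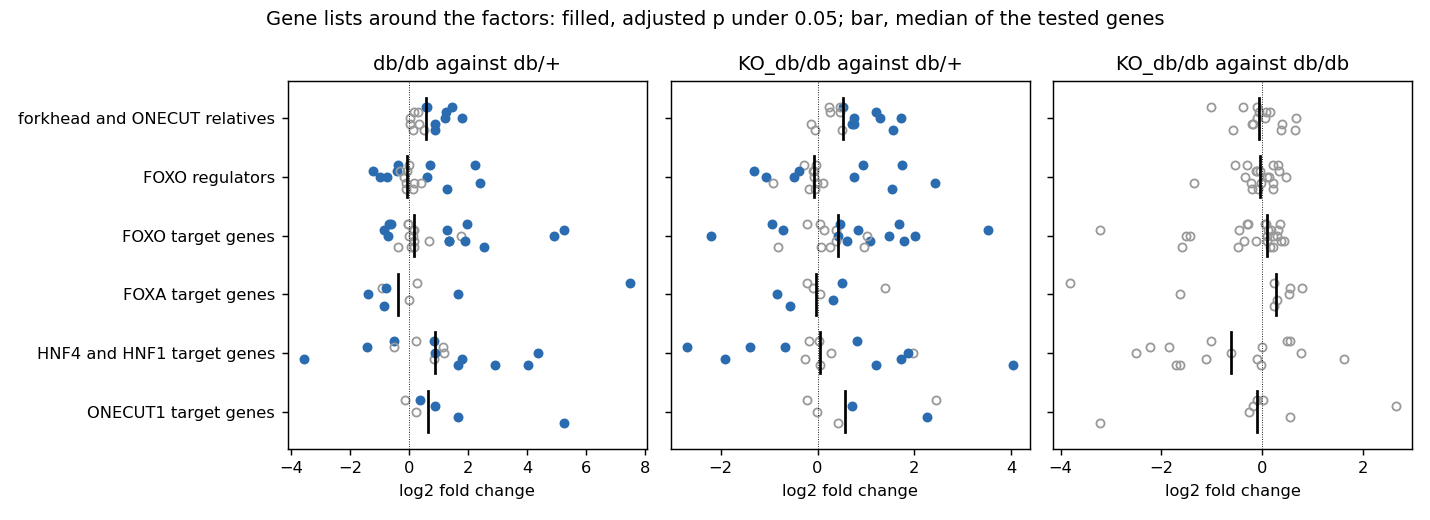
log2 fold change (horizontal axis) of each tested gene of 6 lists around the factors in the 3 comparisons; filled blue points have an adjusted p under 0.05, open grey points do not, and black bars are medians. The relatives lie to the right in both comparisons with db/+. No gene of the 6 lists is called by edgeR in KO_db/db against db/db. DESeq2 calls 1 to 6 in each list there, beside 1369 of all 13486 genes.

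Genes with patterns most like those of the members were sought over the 7 libraries among 7644 genes with a mean of at least 10 CPM, by the root mean square difference of log2 CPM about each gene's mean. Nearest to Foxo1 were Snx18, a sorting nexin (0.061), Atg9a, the autophagy membrane protein (0.0918), and Lrrfip2 (0.0919), where the median gene differed by 0.465. Nearest to Foxa2 were Atg16l1, Ankrd13c and Npepl1, at 0.0397 to 0.0515, and nearest to Hnf4a were St7l and Fem1c, at 0.0432 and 0.0502. Foxa2 and Hnf4a varied little among these libraries, by 0.125 and 0.133 on this measure, against 0.377 for Foxo1, so that many flat genes come close to them. Among the members, Foxo1 was nearer to Hnf4a (0.358) and Foxo3 (0.359) than to the rest. The list for Onecut1 rested on 11 counts and changed wholly with the prior count, and its genes are not named.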

How the data were processed

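The 7 libraries were grouped by genotype and mouse as the labels give them. Per the labels and methods, the authors quantified reads with kallisto 0.44.0 on GRCm38 and deposited estimated counts per gene, rounded and not normalized. The annotation release is not given in the sources used here. The methods describe a sort gate on YFP and AldeRed fluorescence, and do not say how the tdT mice of these libraries were gated. 0 sample columns were left out. The members and gene lists were chosen with earlier results of these data known.

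For every comparison only the libraries of both groups entered the fit, in R 4.3.3 with edgeR 4.0.16. filterByExpr with a minimum count of 10 removed low genes, TMM scaled the libraries, and the quasi-likelihood test applied with Benjamini-Hochberg adjustment at 0.05. DESeq2 1.42.0 was an alternative, as were RLE scaling, no filter, all libraries in one fit, a replicate block, scaling without acinar markers, a threshold of 0.01, each library left out, and a length and GC trend removed. The log2 CPM prior count was 2. Replicates are separate mice, and no 2 libraries of a group were copies.

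Named genes were the members, the 4 most abundant genes of each list, list genes called in KO_db/db against db/db, Aldh1a3, and the 3 genes nearest to each of 4 members. Other genes named were chosen after their values were seen. Some genes that this rule names are not reported here. Among the marker lists, only Ucn3 of the β-cell list was called in that comparison. Of the symbols, 34222 matched GENCODE M21, which gave positions and lengths. On simulated data with 200 changed genes, each by 2 on the log2 scale, edgeR recovered 200 in every comparison. It also called 11 unchanged genes between the diabetic groups and 6 for either diabetic group set against lean. This simulation does not give the power of the real libraries. Between the real diabetic groups, 0 of 27 acinar markers were called, at a median log2 fold change of 8.24. Mafa was not called at 2.35 (adjusted p = 0.0538 in edgeR), while Ucn3 was called at 1.79. Depth was 27496645 to 35852785 counts per library.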

Additional observations from a re-analysis of the deposited data

How the results depend on the processing

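Of 228 fold changes of members recomputed under the alternatives, 210 kept direction and side of the threshold. Foxo1 in KO_db/db against db/+ lost its call with the mouse number as a replicate block (adjusted p = 0.0601 in edgeR), and in both comparisons with db/+ when the length and GC trend was removed. Sign changed for Foxo1 in KO_db/db against db/db without KO_db/db mouse 1 (−0.138) or db/db mouse 1 (−0.0223; leave-one-out range −0.138 to 0.291), for Foxo3 there (−0.0465 and −0.0864, range to 0.713), for Foxa3 in db/db against db/+ without db/db mouse 2 (0.0674, range from −0.913), for Hnf4a in db/db against db/+ with the trend removed (−0.0251), and for Hnf4a in KO_db/db against db/+ under RLE (0.00953), DESeq2 (0.00927) and without db/+ mouse 1 (0.00227) or 2 (0.0203, range from −0.0369). The causes were not tested. Members called in db/db against db/+ were 2, 1 with the trend removed or at an adjusted p under 0.01, and 3 in DESeq2, without a filter or without db/+ mouse 1 (each adding Hnf4g) and without db/db mouse 1 (adding Foxa3). They were 0 in KO_db/db against db/db under each alternative.

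Genes called in KO_db/db against db/db were 43, and 1369 in DESeq2, 1570 without a filter, 818 with all libraries in one fit, 22 with the replicate block, 82 with the trend removed, 0 at 0.01, and 0 to 225 with a library left out. Where that left 1 library in a group, it was assumed to vary like the others. In db/db against db/+ they were 5069, 2479 at 0.01 and 3331 to 4394 with a library left out, and in KO_db/db against db/+ 5081, 2394 at 0.01 and 3060 to 4725. The labels number the mice within each group and name no pairs, so the main fits used no pairing. Same-number correlations across genes ran from −0.102 to 0.0759. In a group of 2, deviations from the group mean mirror each other, so these correlations cannot settle whether the numbers pair the mice. The replicate block is therefore only an alternative setting. List medians changed sign for FOXO targets in db/db against db/+ with the trend removed (−0.0790) or without db/db mouse 2 (−0.0331), FOXO targets in KO_db/db against db/db (leave-one-out range −0.148 to 0.220), HNF targets in KO_db/db against db/+ (−0.0131 to 0.214), FOXA targets in KO_db/db against db/+ without KO_db/db mouse 2 (0.161, range from −0.327) or db/+ mouse 1, without a filter or in one fit, macrophage markers there with all libraries in one fit (0.221), and, in KO_db/db against db/db, endothelial markers without db/db mouse 2 (0.990, range from −0.638) or KO_db/db mouse 1 and with the block and stellate markers without a filter (−1.32) or with a library left out (−2.16 to −0.564). Other sign changes, within 0.1 of 0, were in relatives and FOXO regulators between the diabetic groups, and the δ- and PP-cell markers in KO_db/db against db/+ ran from −0.170 to 1.15. Members near the floor, Foxa1 and Onecut1, were too shallow to compare.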
